A study of Mus musculus with 3 samples.

Results

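Connexins are the channel proteins of gap junctions, and the 6 connexin genes described here are Gjb2, Gjb5, Gjb6, Gja1, Gja4 and Gjc1, taken by name from the 31510 genes that were counted. Of these, 5 were found by symbol and Gjc1 by its Ensembl ID. The members were chosen on their exon reads, intron reads and RPKM in all the libraries, so the values below describe them and test nothing. A further 12 connexin genes were read beside the members.

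Connexins assemble into rings in the membrane, and rings of neighbouring cells dock to form channels that pass ions, second messengers and small metabolites from cell to cell. Beta-group connexins are typical of epithelia, and the mouse trophectoderm and its trophoblast descendants are epithelia of this kind. Gap junctions form at compaction of the morula and couple the cells of the blastocyst.

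The RNA came from blastocysts in delayed implantation, in which the embryo rests in the uterus until estradiol (E2) is supplied. The mothers were CD-1 mice of 2 months whose ovaries were taken out on day 4 of pregnancy, and in all 3 states they had 2 mg of progesterone daily from day 5 to day 7. Dormant blastocysts had no E2 and were flushed on day 8, while reactivating and reactivated blastocysts came from mothers killed 6 h and 12 h after E2 on day 7. Each state was 1 library from more than 3000 pooled blastocysts, so that no difference between states has a replicate check and the collection time changed together with the state. The pools mix trophectoderm, epiblast and primitive endoderm, and in such bulk RNA fewer cells of a type and less RNA per cell cannot be told apart.

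The libraries held 9298675 to 12941447 exon reads, and 3 reads, the limit that a count of 0 allows, correspond to 0.158 to 0.212 RPKM for a gene with 1 kb of exon. RPKM is the number of exon reads per kb of exon and per 1000000 reads of the library, and RPM, used here for introns, leaves out the length. All 13 trophectoderm markers and all 10 epiblast markers were at 1 RPKM or more in each library. Of 10 primitive endoderm markers, all were in the dormant library and 9 in each of the others, with Ttr at 1.38, 0 and 0.17 RPKM. Intervals are at 95% and reflect the counting of reads alone, and several reads may stem from 1 molecule, since no molecular identifiers were used.

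The starts of the 3 members that reached 5 RPKM are shown, since these genes carry the reads and took different courses: Gjb2 fell late, Gjb5 was slightly higher at each step and Gja1 dipped before it was highest. Each line is the 250 bases before the RefSeq start site (GRCm38.p6), 5′ to 3′ on the strand of the gene, at chr14:57104703-57104952 for Gjb2 (minus strand), chr4:127358165-127358414 for Gjb5 (minus strand) and chr10:56377050-56377299 for Gja1 (plus strand). Capitals mark matches, on either strand, to an AP-1 motif, a GC box, a TATA box, an E-box or a GATA site, spelled out after the lines.
Gjb2: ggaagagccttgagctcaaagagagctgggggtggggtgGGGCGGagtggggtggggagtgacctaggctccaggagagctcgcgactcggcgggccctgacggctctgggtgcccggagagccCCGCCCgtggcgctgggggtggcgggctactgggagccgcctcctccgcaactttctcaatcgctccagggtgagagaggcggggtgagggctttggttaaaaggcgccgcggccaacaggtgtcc
Gjb5: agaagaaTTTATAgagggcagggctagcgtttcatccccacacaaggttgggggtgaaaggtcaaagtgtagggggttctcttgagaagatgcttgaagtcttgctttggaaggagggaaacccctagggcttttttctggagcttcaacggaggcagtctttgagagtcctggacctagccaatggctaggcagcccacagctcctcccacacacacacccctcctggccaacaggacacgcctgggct
Gja1: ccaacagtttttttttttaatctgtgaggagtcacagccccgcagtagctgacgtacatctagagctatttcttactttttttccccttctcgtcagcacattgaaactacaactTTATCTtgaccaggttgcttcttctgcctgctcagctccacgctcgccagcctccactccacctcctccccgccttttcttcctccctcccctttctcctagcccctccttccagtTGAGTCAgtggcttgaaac

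The stretch before Gjb2 was 69.2% G and C, against a median of 52.4% over 32851 start sites, and held 2 GC boxes (GGGCGG), a motif found within the same distance of 32.7% of those sites. The stretch before Gjb5 held a TATA box (TATAAA) far from the start, 243 to 238 bases before it, and 12.4% of sites held one. Before Gja1 there was an AP-1 match (TGANTCA) 19 to 13 bases from the start, and 6.75% of sites held one. A GATA match (NGATAA) lay 135 to 130 bases before the Gja1 start, as in 22.5% of sites at any distance. An E-box (CACGTG), held by 6.02% of sites, was in none of the 3 stretches, and no 2 matches overlapped. A match is a string of letters and not a measured binding site. Of the 6 members 5 had an entry, and Gjc1 had none.

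Gjb2 encodes connexin 26, a connexin of secretory and barrier epithelia (ENSMUSG00000046352, GRCm38 chromosome 14, 57098600 to 57104702). Dormant blastocysts had 190.13 RPKM (186 to 195, 6421 exon reads), those at 6 h 212.88 RPKM (208 to 218, 7988 reads) and those at 12 h 13.19 RPKM (12.2 to 14.3, 599 reads). The first pair of libraries was high and close together, and the third was low, with intervals that did not overlap between any of the libraries. Ranked by RPKM among all genes, it had place 277 in the dormant library, 256 at 6 h and 3327 at 12 h. From 6 h to 12 h the level fell by 3.91 on the log2 scale of RPKM + 1, the lowest value of 12065 genes tested, and the plain ratio was 16.1 (14.8 to 17.6). Against dormant the 12 h value was -3.75, the third lowest of 12037, and the 6 h value was 0.16.

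**Figure D1:**
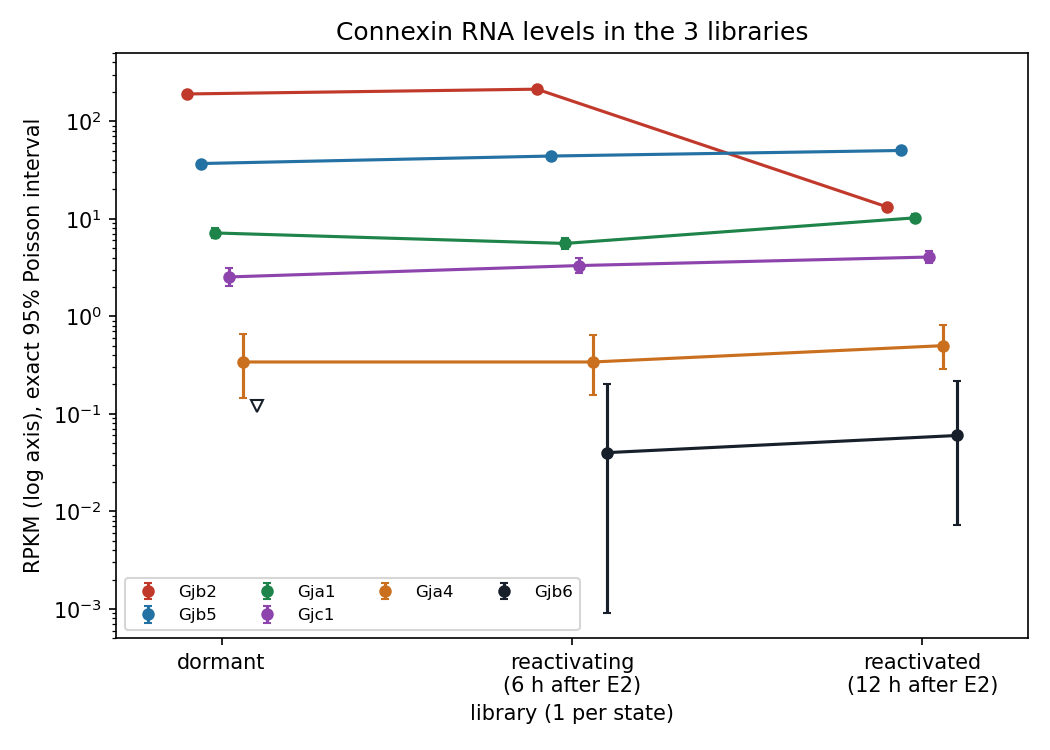
RPKM (log axis) of the 6 members in the 3 libraries, with exact 95% Poisson intervals; the open triangle marks the level of 3 reads for a gene listed at 0. Gjb2 goes from 212.88 RPKM at 6 h to 13.19 at 12 h, while Gjb5, Gja1 and Gjc1 are at their highest at 12 h.

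Intron reads, which come largely from unspliced RNA, gave a second view of Gjb2, which has 1 intron in GENCODE M21. Dormant blastocysts had 296 of them, with 261 at 6 h and 17 at 12 h, that is 21, 16.6 and 0.896 RPM. At 6 h the intron reads were at 0.794 of dormant (0.669 to 0.94), while exon reads were at 1.12 (1.08 to 1.16), so that the 2 kinds of reads lay on opposite sides of the dormant level. Over the 10525 genes with 20 intron reads and 20 exon reads or more over both libraries, the median intron ratio was 0.987 and the median exon ratio 1.05, and 21.2% of those genes had a lower intron ratio than Gjb2. At 12 h the intron reads were at 0.0427 of dormant (0.0246 to 0.0696) and the exon reads at 0.0694 (0.0637 to 0.0755). That intron ratio was second lowest of 10671 genes, whose median was 0.898. Of Gjb2 exon reads, those that crossed the exon junction were 2.99% before E2 (Wilson interval 2.6 to 3.44%), 1.89% at 6 h (1.61 to 2.21%) and 1.34% at 12 h (0.678 to 2.61%). Over all genes this share was 9.96%, 10.6% and 9.76% in the dormant, 6 h and 12 h libraries.

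**Figure D2:**
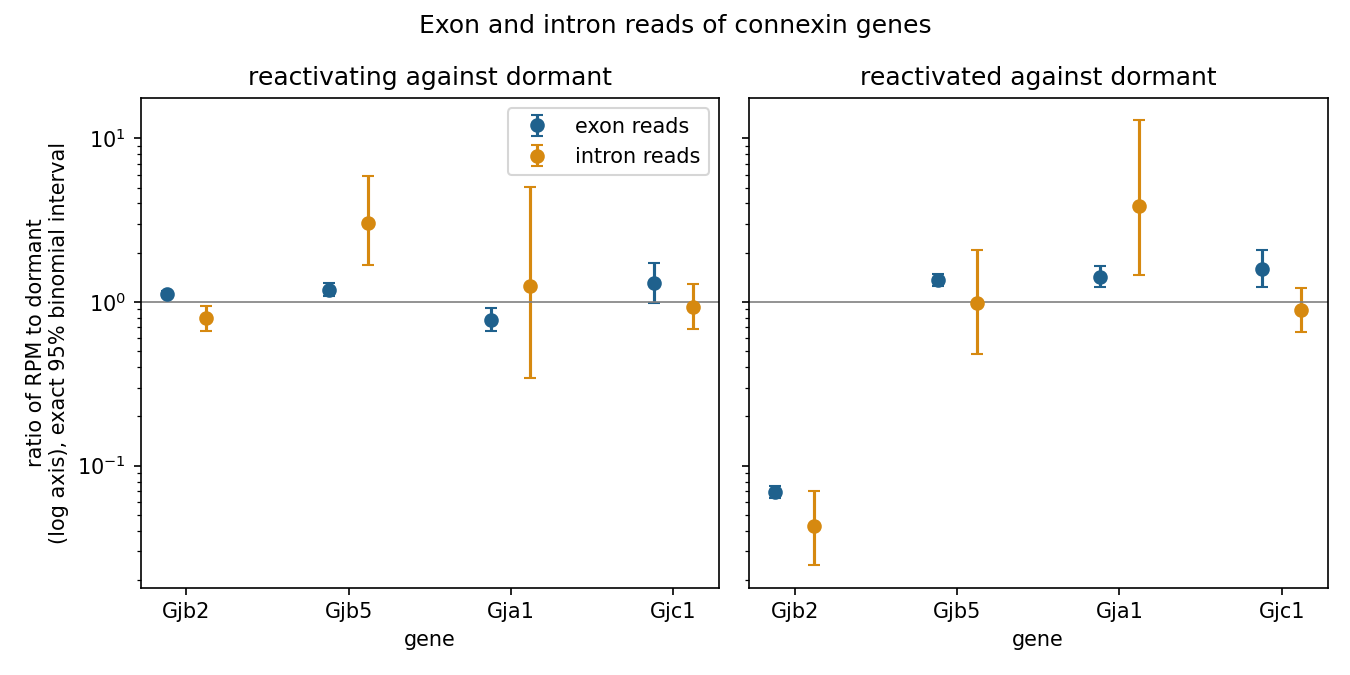
Exon reads and intron reads in RPM, as a ratio to dormant (log axis), for 4 connexin genes, with exact 95% binomial intervals and a line at 1. For Gjb2 both kinds of reads are far below 1 at 12 h, and for Gjb5 at 6 h intron reads are at 3.06 and exon reads at 1.19.

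Gjb5 encodes connexin 31.1, a connexin of skin and of trophoblast (ENSMUSG00000042357, chromosome 4, 127354809 to 127358181). Its level was 36.79 RPKM (34.4 to 39.3) before E2, 43.92 (41.4 to 46.5) at 6 h and 50.08 (47.7 to 52.6) at 12 h. The level was higher at each step with intervals apart, but the whole difference, 0.43 on the log2 scale, was below the size rule of a log2 difference of 1 or more, with 1 RPKM or more in the higher of the libraries compared. Its intron reads did not follow the exon reads: there were 15, 51 and 20, and at 6 h they were at 3.06 times dormant (1.69 to 5.86), higher than in 98.5% of genes. At 12 h they were at 0.992 of dormant (0.483 to 2.08). Reads that crossed the exon junction were 37, 59 and 44, so that, unlike exon reads, they were not highest at 12 h. They made up 4.18% of Gjb5 exon reads before E2 (Wilson interval 3.05 to 5.71%). The share was 5.03% at 6 h (3.92 to 6.43%) and 2.72% at 12 h (2.03 to 3.63%).

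Gja1 encodes connexin 43, the connexin of heart muscle and many other tissues, which the early embryo also makes (ENSMUSG00000050953, chromosome 10, 56377330 to 56402513). The dormant library held 7.15 RPKM of it (6.38 to 7.99), the 6 h library 5.58 (4.94 to 6.29) and the 12 h library 10.22 (9.42 to 11.1). The middle library was the lowest and the last the highest, with no overlap of intervals. On the log2 scale the differences were -0.31 at 6 h and 0.46 at 12 h against dormant, and 0.77 between 6 h and 12 h, none past the size rule. Intron reads were few, 5, 7 and 26, and at 12 h at 3.87 times dormant (1.46 to 12.9). None of its 1175 exon reads in the 3 libraries crossed an exon junction, while 2.34% of Gjb2 and 3.81% of Gjb5 exon reads did. The Wilson interval for Gja1 allows a share of up to 0.326%. GENCODE M21 lists 8 Gja1 transcripts with 1 to 3 exons, and its gene is 25184 bases long where the deposited length is 13086, so that the gene model behind the counts differs from M21.

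Gjc1 encodes connexin 45, a connexin of the embryonic heart and of vascular smooth muscle (ENSMUSG00000034520, chromosome 11, 102799579 to 102819700). It was low throughout, at 2.53 RPKM (2.03 to 3.13) before E2, 3.31 (2.76 to 3.95) at 6 h and 4.05 (3.49 to 4.68) at 12 h. The intervals of dormant and reactivated did not overlap, and that of reactivating overlapped both. Exon reads went from 86 to 125 to 185, while intron reads were at 5.81, 5.42 and 5.16 RPM. Introns thus held 48.8% of its reads in dormant (41.4 to 56.3%) and 34.6% in reactivated blastocysts (29.3 to 40.3%), against 4.41% and 2.76% for Gjb2. Over all genes introns held 27.7% and 23.5%. These shares are not scaled by length, and the deposited gene and exon lengths were 20122 and 2404 bases for Gjc1 and 6089 and 2392 for Gjb2. Junction reads of Gjc1 were few, 7, 3 and 2, and did not go up with its exon reads. They were 8.14% of its exon reads in dormant (Wilson interval 4.0 to 15.9%) and 1.08% in reactivated blastocysts (0.297 to 3.86%).

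Gja4 and Gjb6 were close to the limit of these libraries. Gja4 encodes connexin 37, which joins oocyte and follicle cells and lines arteries (ENSMUSG00000050234, chromosome 4, 127311421 to 127314039). It had 8, 9 and 16 exon reads, 0.34, 0.34 and 0.50 RPKM, with intervals that all overlapped (0.146 to 0.664 in dormant, 0.287 to 0.814 in reactivated blastocysts). Of the 4 markers of endothelium, Kdr and Tek stayed at or below 0.27 RPKM, Cdh5 was at 1.83, 1.34 and 1.82 RPKM and Pecam1 at 4.46, 4.83 and 1.67. Gjb6 encodes connexin 30, the partner of connexin 26 in the inner ear and skin (ENSMUSG00000040055, chromosome 14, 57123303 to 57133611). It had 0, 1 and 2 exon reads, where 3 reads, the limit for a count of 0, are 0.121 RPKM in dormant. No difference in exon reads was detectable at this depth. Its intron reads were 1, 0 and 8, and the interval of their ratio of 12 h to 6 h began at 1.41. On the opposite strand of Gjb6, where GENCODE M21 has no gene overlapping it, there were 4, 15 and 11 reads. Its exon and intron reads together were 1, 1 and 10. Gjb2 had 0, 3 and 0 reads on the opposite strand.

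In dormant and reactivating blastocysts the members ranked Gjb2, Gjb5, Gja1, Gjc1, Gja4 and Gjb6 by RPKM, with overlap only between the intervals of the last pair. In reactivated blastocysts Gjb5 came first and Gjb2 second, still above Gja1 with intervals apart. By the size rule 4 members could be tested in each comparison, while Gja4 and Gjb6 stayed under 1 RPKM. At 6 h against dormant none of the 4 was higher and none lower, where 2.68% of all 12126 genes tested were higher and 3.07% lower. At 12 h against dormant 1, Gjb2, was lower and none higher, with 7.66% of 12037 genes lower and 5.27% higher. Between 6 h and 12 h Gjb2 alone was lower and none higher, with 7.63% of 12065 genes lower and 3.82% higher. The Poisson intervals were apart for 3 of the 4 members at 6 h, where 29.8% of all genes were, for 4 at 12 h (56.2%) and for 3 between 6 h and 12 h (55.7%). The comparisons with dormant share that library, and those with the 12 h library share the latter.

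**Figure D3:**
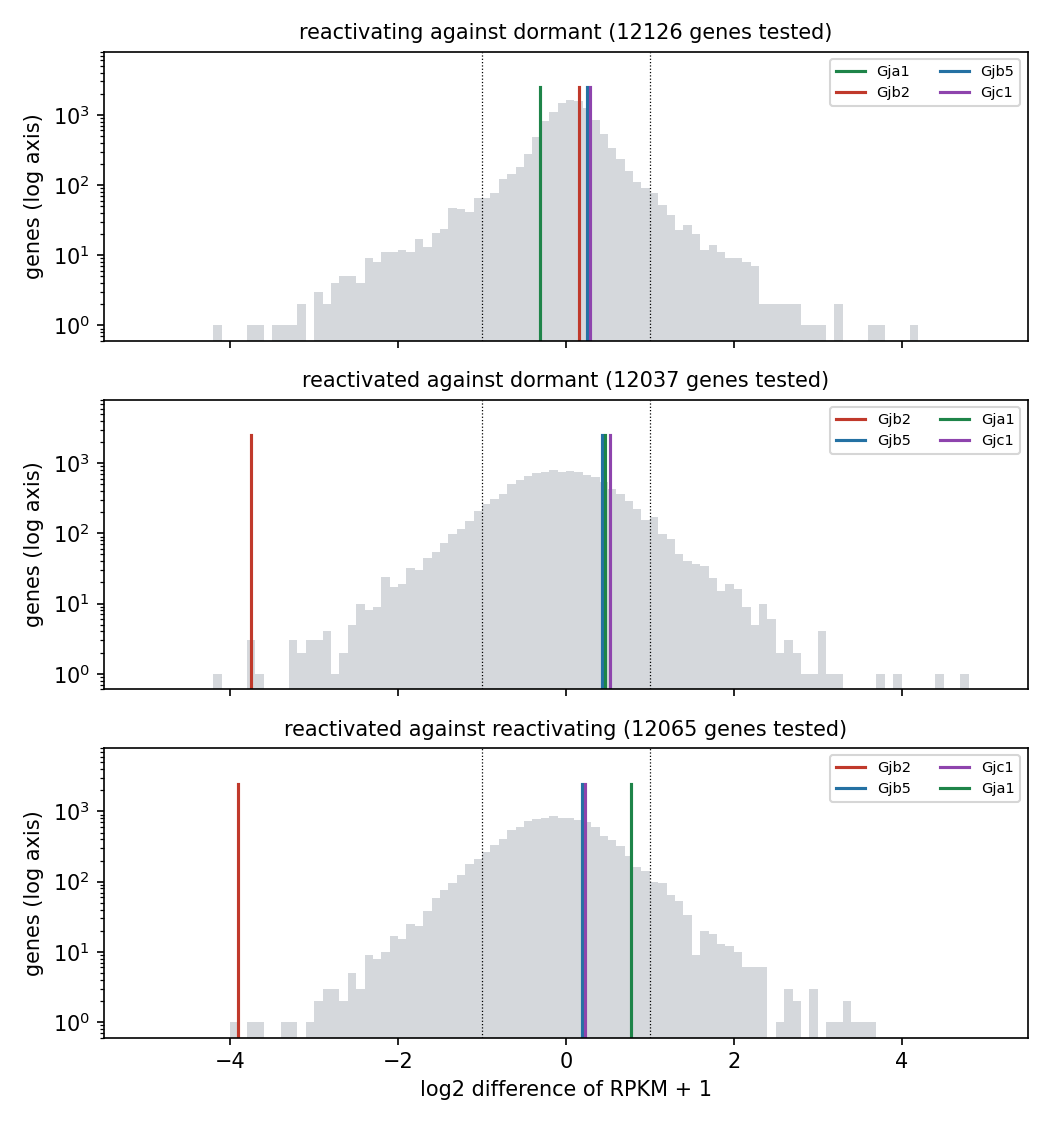
Histograms of the log2 difference of RPKM + 1 over all genes tested in each comparison (gene numbers on a log axis), with lines at the values of Gjb2, Gjb5, Gja1 and Gjc1, and dotted lines at the size rule of 1. Gjb2 lies among the most lowered genes in both comparisons of the 12 h library, and the other members lie between the dotted lines.

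Summed over the 6 members, the level was 237 RPKM before E2, 266 at 6 h and 78.1 at 12 h. The sum without Gjb2 was 46.8, 53.2 and 64.9 RPKM, so that the sum of the other members was highest where Gjb2 was lowest. Gjb2 made up 80.2% of the summed RPKM in the dormant library, 80.0% at 6 h and 16.9% at 12 h. Gjb5 made up 15.5%, 16.5% and 64.1%. Per length of RNA, Gjb2 stood at 5.17 times Gjb5 in dormant blastocysts, and Gjb5 at 3.8 times Gjb2 in reactivated ones. The share of Gja1 went from 3.02% to 13.1% and that of Gjc1 from 1.07% to 5.19%, with Gja4 at 0.64% or less. The 12 connexin genes read beside the members stayed at or below 0.38 RPKM in each library.

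**Figure D4:**
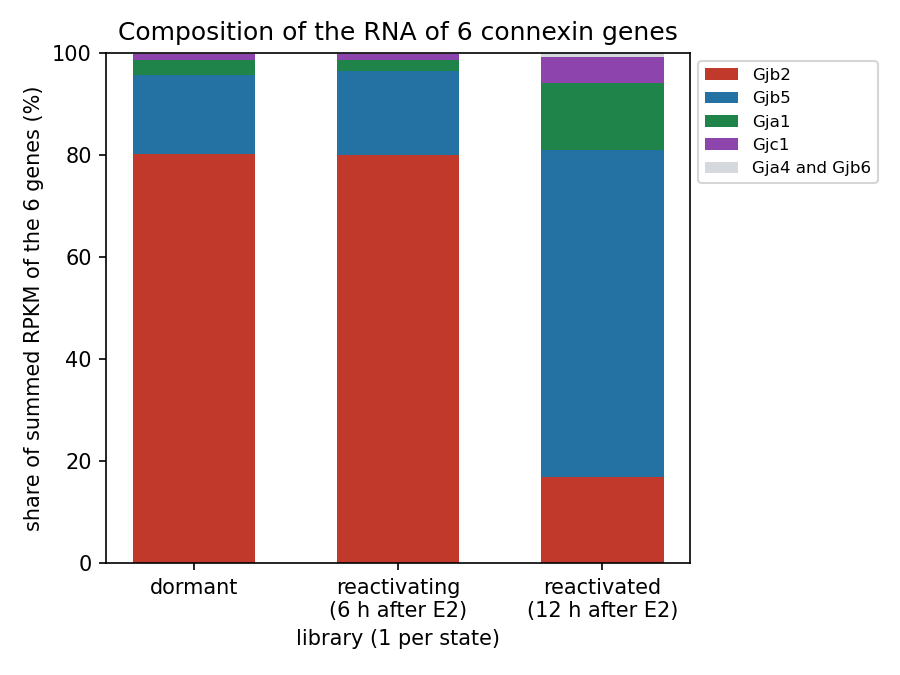
Share of the summed RPKM of the 6 members (%) held by each gene in the 3 libraries, as stacked bars, with Gja4 and Gjb6 drawn together. Gjb2 holds 80.2% and 80.0% in the first libraries and 16.9% in reactivated blastocysts, where Gjb5 holds 64.1%.

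Some of the genes next to the members in GENCODE M21 had values in the tables. On chromosome 14 Gja3, the gene of the lens connexin 46, lies 40500 bases from Gjb2 and had 0, 3 and 5 exon reads. At 141382 bases from Gjb6, Cryl1, which encodes a crystallin-related dehydrogenase, stood at 4.75, 4.83 and 1.49 RPKM, a log2 difference of -1.21 at 12 h against dormant. On chromosome 10 Hsf2, the gene of a heat shock transcription factor, is the next gene on one side of Gja1 but 1083872 bases away, and stood at 11.83, 10.13 and 15.18 RPKM. Tbc1d32, 148641 bases away on the other side, stood at 1.28, 1.07 and 0.49 RPKM.

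The genes most like a member over the 3 libraries were sought among 6615 genes with at least 5 RPKM and 100 exon reads in their highest library, by the Euclidean distance between log2(RPKM + 1) values centred on their mean. Closest to Gjb2 was Arl14, a small GTPase gene, at 26.43, 29.07 and 1.18 RPKM (distance 0.095), followed by Papln at 0.78 and Gpnmb at 0.792. Fam3c, Pptc7 and Fmr1nb were closest to Gjb5, with distances of 0.01 to 0.015, and Agfg1, Ran and Plaa to Gja1, with 0.012 to 0.016. With 3 values per gene, such likeness describes the libraries and nothing more.

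Genes whose products bind connexins or act on them were read from lists. Of 19 partner genes, which encode scaffolds and proteins of transport and breakdown, 15 were tested. At 12 h against dormant 1 was higher and 1 lower, where 5.27% of all genes tested were higher and 7.66% lower, with a median log2 difference of -0.05 beside -0.07 over all genes tested. Tjp3, a zonula occludens scaffold, went from 34.32 RPKM (95% Poisson interval 32.6 to 36.1) to 14.87 (13.9 to 15.9), while its relative Tjp1, the scaffold that binds the tail of connexin 43, stood at 31.44, 26.25 and 26.76. Mapre1, a microtubule end protein, went from 22.01 to 45.78 RPKM. Of 15 kinases tested that phosphorylate connexins, Cdk1 alone was higher, from 11.47 to 28.60 RPKM, and none was lower, with a median of -0.35 and the same shares over all genes. Src, which phosphorylates connexin 43, stood at 15.97, 13.73 and 16.18 RPKM.

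Of 18 tested transcription factor genes on a list of connexin regulators, 8 were lower at 12 h against dormant and none higher, with a median of -0.63, where 7.66% of all genes tested were lower and 5.27% higher with a median of -0.07. They were the AP-1 genes Jun, Junb, Jund and Fos, and Gata3, Cdx2, Tbx3 and Msx2. Junb went from 47.22 to 12.47 RPKM and Cdx2, a regulator of trophectoderm, from 112.57 to 34.83. At 6 h none of the 18 had passed the rule in either direction (median -0.16), as none of the partners or kinases had. This list was drawn up with the fall of several of its genes known. Of the related large-pore channel genes, Panx1 was at 3.76, 4.22 and 5.72 RPKM and Lrrc8a at 8.98, 11.25 and 8.25, and neither passed the rule.

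The uterus also makes connexin 26, in its epithelium, and connexin 43, in its stroma, so markers of both were read beside these genes. Of 13 markers of uterine epithelium, 5, 6 and 5 were at 1 RPKM or more in the dormant, 6 h and 12 h libraries, and their summed RPKM was 110, 104 and 62.0. None was at 0, although Ltf, Calca, Areg, Ihh, Pgr, Esr1 and Muc4 stayed under 1 RPKM in each library. At 12 h against dormant 7.66% of all genes tested were lower and 5.27% higher. Of the 5 epithelial markers tested, Lif (35.75, 33.96 and 9.55 RPKM) and Wfdc2 (30.11, 32.67 and 13.38) were lower and none higher. The other 3 did not pass the rule: Muc1 stood at 3.61, 3.11 and 1.56 RPKM and Msx1 at 36.28, 29.51 and 30.64. Foxa2, which is also on the list of primitive endoderm markers, stood at 1.82, 1.84 and 3.60. The part of uterine epithelium in the level of Gjb2 was not tested. Of 11 markers of uterine stroma, 2 or 3 reached 1 RPKM in a library, the sums were 8.52, 7.57 and 7.96 RPKM, and the decidual gene Prl8a2 was at 0 in each. These sums joined different courses. Col3a1 stood at 2.39, 1.73 and 0.71 RPKM, Vim at 3.58, 2.55 and 4.89, and Wnt4 at 0.31, 1.45 and 1.23. None of these 3, the stroma markers tested at 12 h against dormant, passed the rule. Of 8 markers of immune cells, 4, 3 and 2 were at 1 RPKM or more, and the sums were 23.1, 17.0 and 7.28 RPKM. At 12 h against dormant 3 of the 4 tested, Laptm5, Cd14 and Tyrobp, were lower and none higher, with a median of -1.23. The median over all genes tested was -0.07, with 7.66% lower and 5.27% higher. Laptm5 went from 13.74 to 11.52 and 4.11 RPKM, Tyrobp was at 0 at 12 h, and Ptprc, the gene of CD45, stayed at or below 0.27 RPKM in each library. The part of immune cells in the level of Gjb2 was not tested either. Markers of trophectoderm summed to 1610, 1650 and 1370 RPKM, of which Krt18 alone had 807.14, 833.5 and 624.39. Markers of epiblast summed to 191, 231 and 211 RPKM and those of primitive endoderm to 361, 397 and 271. Of the 13 trophectoderm markers tested at 12 h against dormant, Cdx2, Gata3 and Dab2 were lower and Krt19 and Elf5 higher. Dab2 is also on the list of primitive endoderm markers. The shares over all genes were the same 7.66% and 5.27%.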

How the data were processed

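RNA of 3 pooled mouse blastocyst libraries, depleted of ribosomal RNA, was read as 50 bp single-end SOLiD reads, per the labels' protocols. The authors deposited read counts per gene, per the file headers split into exon, intron, junction and opposite-strand reads. They also deposited an RPKM per gene, which followed from exon reads, exon length and totals of 14118723, 15687239 and 18982195 reads within 2% or the rounding, save for 1 gene in 1 table. The build GRCm38 is named in the submitters' processing notes, and the aligner, counting tool and annotation release are not stated there.

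Coordinates and symbols came from GENCODE M21 by Ensembl ID (84.7% of IDs matched). Differences are log2((RPKM + 1)/(RPKM + 1)), and a gene was called at a log2 difference of 1 or more with 1 RPKM or more in the higher of the libraries compared. No test was run, as each state had 1 library. Intervals (95%) are exact Poisson (counts), exact binomial (ratios) or Wilson (shares). Named genes were connexins, list genes past the rule, up to 5 per list at 5 RPKM or more, the 3 nearest patterns and chromosome neighbours. Tjp1, Src, Panx1 and Lrrc8a, and single markers, were named after their values were seen. The members and lists were chosen with earlier results of these data known. Scripts ran in Python 3.11.15 with SciPy 1.17.1, and the call rule was tested on simulated counts. Some genes of the lists are not reported here and were left out of counts and sums of the lists.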

Additional observations from a re-analysis of the deposited data

How the results depend on the processing

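Each library was the single sample of its state, so no library could be left out, and depth limits Gja4 and Gjb6 to levels that cannot be compared. No paired analysis was possible because each state has 1 library. In all 8 alternatives Gjb2 stayed lower by the rule, at -3.87 to -3.69 for 12 h against dormant and -4.03 to -3.79 for 12 h against 6 h. Its difference at 6 h against dormant, 0.16, became 0.06 with upper-quartile scaling, 0.10 with median-ratio scaling and 0.09 with a total without mitochondrial, small and ribosomal RNA genes. Gjb5, Gja1 and Gjc1 kept their signs in the 3 comparisons under each alternative, without passing the rule. Among the 8 alternatives, a minimum of 5 RPKM and no minimum leave every log2 difference as it is. They could therefore not change a size or a sign. Median-ratio scaling moved the median of all genes by 0.11 on the log2 scale at 12 h against 6 h. With this scaling 46.9% of called genes were higher there, against 33.4% without it.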
